A study of Mus musculus with 6 samples.

Results

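The platelet-derived growth factor (PDGF) family was followed here as its 4 ligand genes, *Pdgfa*, *Pdgfb*, *Pdgfc* and *Pdgfd*, and its 2 receptor genes, *Pdgfra* and *Pdgfrb*, which were taken by name as 6 of the 55416 genes in the count table. All 6 were in the table and passed the filter on low counts (at least 10 counts in at least 2 libraries), as did 16296 genes in all. *Pdgfc* passed through the *Wt1KOΔEC* libraries alone.

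RNA was measured in coronary endothelial cells (ECs) of mouse ventricles at E15.5, isolated by FACS for membrane GFP (mGFP). The series asked what the loss of WT1, a zinc-finger transcription factor, changes in these cells. The 3 *ControlΔEC* libraries came from embryos with 1 Pdgfb-driven CreERT2 allele, wild-type *Wt1* and 1 mTmG reporter allele at *R26*. The 3 *Wt1KOΔEC* libraries came from embryos with the same driver and reporter and loxP sites in both *Wt1* alleles. Dams of both groups received tamoxifen by gavage at 75 mg/kg between E11.5 and E13.5, so recombination, GFP labelling and sorting all depended on the *Pdgfb* driver, and the level of *Pdgfb* itself is not independent of how the cells were chosen. The labels call the libraries biological replicates without tying them to embryos or litters, and p-values therefore measure the spread between these samples.

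PDGF ligands are dimers that bring 2 receptor tyrosine kinases together on the receiving cell. PDGF-B made by sprouting ECs is held near the vessel by its retention motif and recruits pericytes and smooth muscle cells, which carry PDGFRβ. PDGF-A and PDGF-C act through PDGFRα, the receptor of fibroblasts and other mesenchymal cells, whereas PDGF-D acts mainly through PDGFRβ, and PDGF-C and PDGF-D are secreted in a latent form until a protease removes their CUB domain.

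The libraries held between 26037324 and 44779020 expected counts, at which 3 counts, taken as the limit of detection, correspond to between 0.0608 and 0.119 CPM (a count scaled by the library's total and its TMM factor). This limit covers counting error only, since the amplified reads carry no molecular identifiers. *Wt1*, the deleted gene, was at 134 ± 21.6 CPM (SD, n = 3) in *ControlΔEC* and 17.9 ± 3.67 CPM (n = 3) in *Wt1KOΔEC*, and it fell by 2.91 on the log2 scale (adjusted p = 0.00319, edgeR's quasi-likelihood test). The share of counts from *Rn18s*, the 18S ribosomal RNA, was between 13.2% and 15.3% in *ControlΔEC* and between 21.1% and 26.5% in *Wt1KOΔEC*, and mitochondrially encoded genes took between 5.21% and 6.61% against 1.68% to 4.57%. A fit without these genes is given below with the other alternatives. Any other part of these library differences in the values given here was not tested. No batch is named by the labels, but library identifiers run consecutively within each genotype, so a batch that follows the genotypes cannot be told apart from them.

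None of the 6 members was a differentially expressed gene (DEG) by the main test, edgeR's quasi-likelihood test with a Benjamini-Hochberg adjusted p under 0.05 and a change of more than 0.58 in size on the log2 scale, which called 12 of 16296 genes (0.0736%). At an unadjusted p under 0.05, 3 members passed, 2 of them lower (*Pdgfd* and *Pdgfrb*) and 1 higher (*Pdgfra*) in *Wt1KOΔEC*, where 13.1% of all genes tested passed, 7.12% as lower and 5.96% as higher. DESeq2 called 1 member, *Pdgfrb*, as a DEG that fell, where it called 1.99% of all genes as lower and 3.64% in either direction. *Pdgfra* was higher, and *Pdgfd* and *Pdgfrb* were lower, with no library of one genotype within the range of the other. That was so for 19.3% of the genes tested, 10.4% as higher and 8.95% as lower in *Wt1KOΔEC*. *Pdgfc* was also separated, but it passed the filter through the *Wt1KOΔEC* libraries alone and is left out of this comparison. The fitted median over all genes was -0.03 on the log2 scale. With 3 libraries against 3, the exact permutation test over samples cannot go below p = 0.1.

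**Figure D1:**
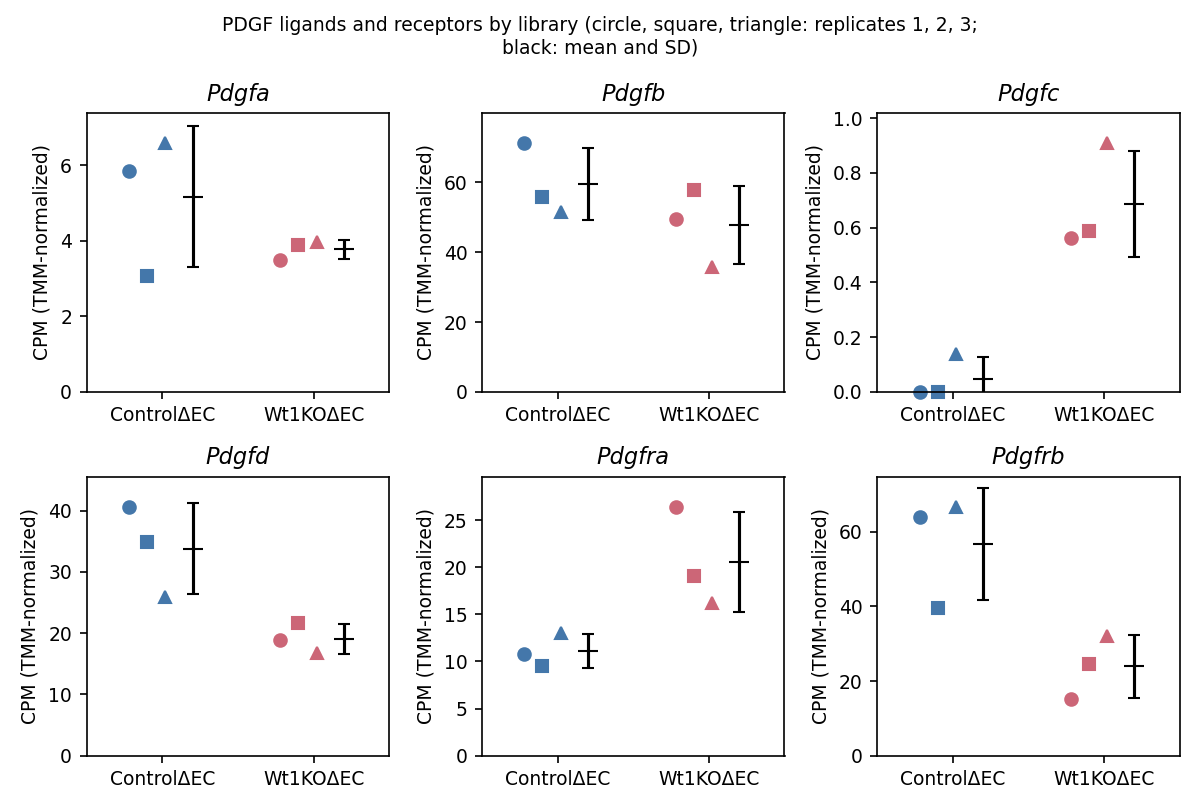
Level of each PDGF gene in every library, in TMM-normalized CPM (vertical axes, linear and starting at 0), with ControlΔEC in blue and Wt1KOΔEC in red, replicates 1 to 3 as circle, square and triangle, and the mean and SD (n = 3) in black. The genotypes are fully separated for Pdgfc, Pdgfd, Pdgfra and Pdgfrb, and they overlap for Pdgfa and Pdgfb.

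Per kilobase of exonic sequence, the scale on which genes can be compared with each other, *Pdgfb* was the highest member in *ControlΔEC* at 14.0 ± 2.44 CPM per kb (SD, n = 3), above 87.8% of the genes tested. *Pdgfrb* followed at 7.01 ± 1.85 CPM per kb and *Pdgfd* at 3.67 ± 0.806 CPM per kb. *Pdgfra* (0.904 ± 0.146 CPM per kb) and *Pdgfa* (0.764 ± 0.275 CPM per kb) overlapped between libraries, and *Pdgfc* was last at 0.0069 CPM per kb. Every other pair of neighbours in this order was separated in all libraries.

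In *Wt1KOΔEC* the order of the means was the same, with *Pdgfb* at 11.2 ± 2.61 CPM per kb, *Pdgfrb* at 2.96 ± 1.05 and *Pdgfd* at 2.07 ± 0.262. *Pdgfra* followed at 1.67 ± 0.430 CPM per kb, *Pdgfa* at 0.558 ± 0.0377 and *Pdgfc* at 0.103 ± 0.0288. Here the ranges of *Pdgfrb* and *Pdgfd*, and those of *Pdgfd* and *Pdgfra*, overlapped, so that the middle of the order was not resolved. *Pdgfb* stood apart from the second gene in both genotypes. With the length of the longest transcript in place of all exons, *Pdgfa* came before *Pdgfra* in *ControlΔEC*.

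**Figure D2:**
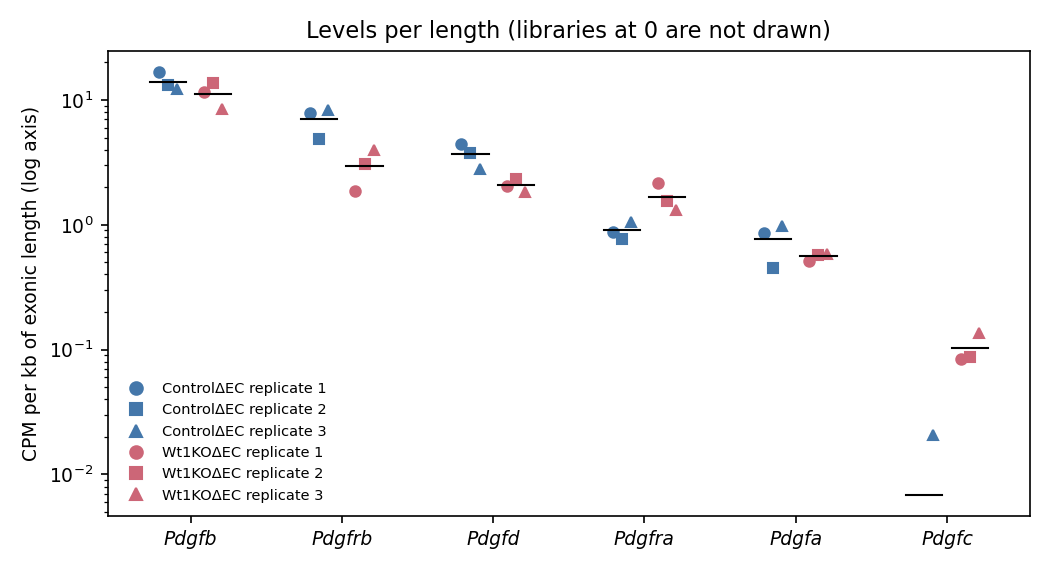
Level of each PDGF gene per kilobase of exonic sequence (TMM-normalized CPM per kb, log axis) in ControlΔEC and Wt1KOΔEC libraries, with points for libraries. Pdgfb is highest and Pdgfc lowest in both genotypes, and the 2 libraries in which Pdgfc had no count cannot be drawn on a log axis.

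*Pdgfb*, the endothelial ligand for mural cells, lies on chromosome 15 (GRCm39, 79880009 to 79899181, minus strand). It was at 71.3, 55.8 and 51.6 CPM in *ControlΔEC* replicates 1 to 3 and at 49.7, 57.8 and 35.9 CPM in *Wt1KOΔEC* replicates 1 to 3. The genotypes overlapped, and *Wt1KOΔEC* replicate 2 was above 2 of the 3 *ControlΔEC* libraries. The difference was -0.32 on the log2 scale (SE 0.22, adjusted p = 0.623, edgeR's quasi-likelihood test), with a 95% interval from -0.82 to 0.19. No difference larger than the spread between libraries was measured for the gene whose driver marked the cells.

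*Pdgfa*, which makes the PDGF-A chain that binds PDGFRα, lies on chromosome 5 (138961758 to 138983435, minus strand). Its levels were low, at 5.85, 3.06 and 6.59 CPM in *ControlΔEC* and 3.48, 3.87 and 3.96 CPM in *Wt1KOΔEC*. All 3 *Wt1KOΔEC* libraries lay inside the range of the *ControlΔEC* libraries, of which replicate 2 was the lowest of the 6. The difference was -0.45 on the log2 scale (SE 0.50, adjusted p = 0.793, edgeR's quasi-likelihood test), with an interval from -1.58 to 0.68.

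The exons of *Pdgfa* overlap those of the long non-coding RNA *6330403L08Rik* on the opposite strand over 2552 bp, 37.7% of its exonic length, and the sources used here do not state whether counting used the strand. *6330403L08Rik* was at 3.75 CPM in *ControlΔEC* replicate 2 and at no more than 0.752 CPM in the other 5 libraries. The library with the lowest *Pdgfa* was thus the one with the highest level of the overlapping RNA, and reads of the pair cannot be told apart without strand. *Pdgfc* and *Pdgfra* share 9.97% and up to 3.70% of their exonic length with single opposite-strand models. *Gm16000*, which overlaps *Pdgfc*, and *Gm42803* had no count in any library and *Gm42802* had 1 count in 1 library, which does not tell whether reads were assigned to the members instead.

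*Pdgfd*, the latent ligand of PDGFRβ, lies on chromosome 9 (6168240 to 6379265, plus strand). It was at 40.7, 34.9 and 25.9 CPM in *ControlΔEC* and at 18.9, 21.6 and 16.8 CPM in *Wt1KOΔEC*. Every *Wt1KOΔEC* library was below every *ControlΔEC* library. The mean was 33.8 ± 7.42 CPM (SD, n = 3) against 19.1 ± 2.41 CPM (n = 3), a log2 difference of -0.83 (SE 0.24, unadjusted p = 0.00725, adjusted p = 0.225, edgeR's quasi-likelihood test). It missed the threshold in edgeR and in DESeq2 on the same genes (adjusted p = 0.0592), and passed it in DESeq2 without the filter on low counts (adjusted p = 0.0310), which called 4.67% of the genes to which it gave an adjusted p.

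*Pdgfc*, the latent ligand of PDGFRα, lies on chromosome 3 (80943668 to 81121473, plus strand). It had 0, 0 and 4 counts in *ControlΔEC* and 22, 21 and 23 counts in *Wt1KOΔEC*, that is 0, 0 and 0.139 CPM against 0.563, 0.590 and 0.910 CPM. The libraries with no count allow up to 0.0670 and 0.0608 CPM. The genotypes did not overlap, and the lowest *Wt1KOΔEC* library was 4.06-fold above the highest *ControlΔEC* library. The test over samples did not call the gene (log2 difference 3.89, SE 2.00, adjusted p = 0.463, edgeR's quasi-likelihood test), and the fitted value depends on how counts of 0 are treated. Summed over libraries there were 66 counts against 4, a ratio of 20.3 whose exact 95% interval of 7.56 to 76.7 covers counting error alone and not the spread between libraries. Since *Pdgfc* passed the filter through the *Wt1KOΔEC* libraries alone, its counts are a description.

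Ligands were also set against each other within libraries, as ratios per kb. The log2 ratio of *Pdgfc* to *Pdgfd*, both ligands of the CUB-domain type, differed by 5.53 with 0.5 counts added, by 4.15 with 2 counts added and by 6.998 without *ControlΔEC* replicate 3. Its size is thus set by the counts added to values of 0, and it is given as a description with no test. The ratio of *Pdgfa* to *Pdgfb* differed by -0.05 on the log2 scale and overlapped (exact permutation test, two-sided, p = 1.0).

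*Pdgfrb*, the receptor of mural cells, lies on chromosome 18 (61178212 to 61218133, plus strand). It was at 64.0, 39.6 and 66.8 CPM in *ControlΔEC* and at 15.1, 24.6 and 32.0 CPM in *Wt1KOΔEC*. Every *Wt1KOΔEC* library was below every *ControlΔEC* library, and *ControlΔEC* replicate 2 was the lowest of its group. The mean was 56.8 ± 15.0 CPM (SD, n = 3) against 23.9 ± 8.47 CPM (n = 3), 2.37-fold higher in *ControlΔEC*, with a log2 difference of -1.25 (SE 0.31, unadjusted p = 0.00299, adjusted p = 0.196, edgeR's quasi-likelihood test). The 95% interval ran from -1.95 to -0.55. With DESeq2 *Pdgfrb* passed the threshold (adjusted p = 0.00838), and so it did in edgeR's quasi-likelihood test without the filter on low counts (adjusted p = 0.0108), which called 1.21% of its genes.

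*Pdgfra*, the receptor of fibroblasts, lies on chromosome 5 (75311994 to 75358876, plus strand). It was at 10.8, 9.50 and 13.1 CPM in *ControlΔEC* and at 26.4, 19.0 and 16.2 CPM in *Wt1KOΔEC*. Every *Wt1KOΔEC* library was above every *ControlΔEC* library. The mean was 11.1 ± 1.80 CPM (SD, n = 3) against 20.5 ± 5.29 CPM (n = 3), a log2 difference of 0.89 (SE 0.28, unadjusted p = 0.0123, adjusted p = 0.258, edgeR's quasi-likelihood test). DESeq2 did not call it either (adjusted p = 0.115).

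**Figure D3:**
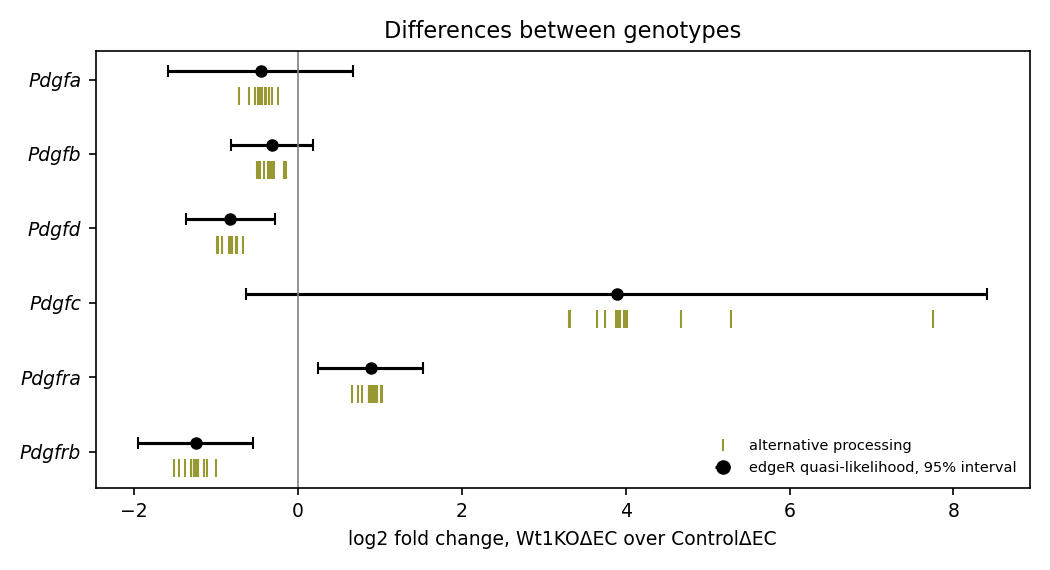
Fitted log2 fold change of each PDGF gene, Wt1KOΔEC over ControlΔEC (horizontal axis), with 95% intervals from edgeR's quasi-likelihood fit. The intervals of Pdgfd and Pdgfrb lie below 0 and that of Pdgfra above 0, those of Pdgfa, Pdgfb and Pdgfc include 0, and that of Pdgfc is the widest.

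The receptors were also compared with each other within each library, which removes the scaling between libraries. *Pdgfra* per kb was 0.111, 0.158 and 0.129 of *Pdgfrb* per kb in *ControlΔEC* and 1.15, 0.508 and 0.332 of it in *Wt1KOΔEC*. In *Wt1KOΔEC* replicate 1 the order of the receptors was turned, and the genotypes did not overlap. The log2 ratio was 2.14 higher in *Wt1KOΔEC* (exact permutation test, two-sided, unadjusted p = 0.1, the smallest that this design allows), which did not pass.

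*Pdgfb* per kb was 2.12, 2.68 and 1.47 times *Pdgfrb* per kb in *ControlΔEC* and 6.25, 4.47 and 2.13 times in *Wt1KOΔEC*. The third *Wt1KOΔEC* library fell among the *ControlΔEC* libraries. The log2 ratio of this ligand to its receptor was 0.94 higher in *Wt1KOΔEC*, which did not pass (exact permutation test, two-sided, unadjusted p = 0.2).

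**Figure D4:**
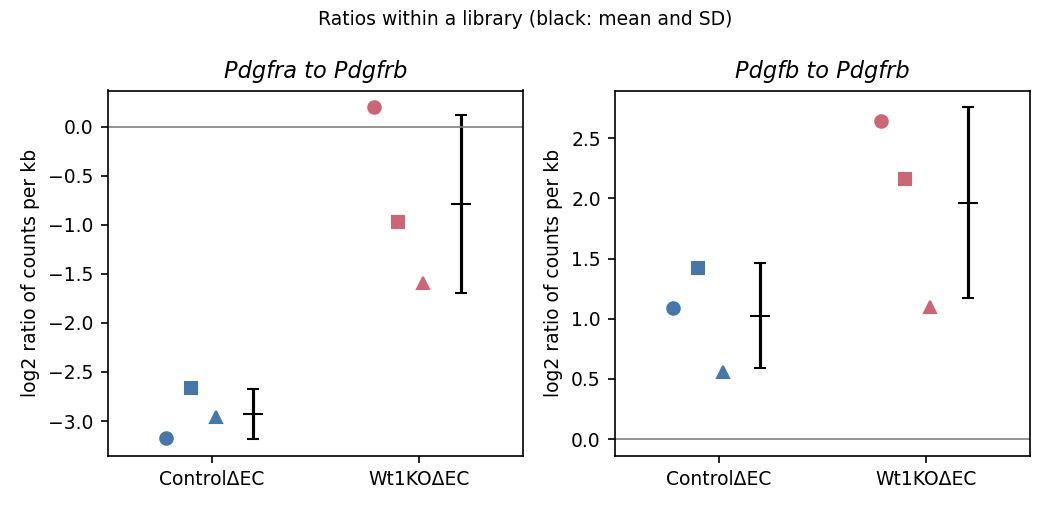
Log2 ratio between PDGF genes within each library (vertical axis, CPM per kb with 0.5 counts added) in ControlΔEC and Wt1KOΔEC. The ratio of Pdgfra to Pdgfrb does not overlap between the genotypes, and that of Pdgfb to Pdgfrb does.

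Since PDGF receptors mark mesenchymal and mural cells, markers of the cells a GFP gate can also hold were read in the same libraries. In bulk samples, fewer cells of a type and less RNA per cell cannot be told apart. The 12 EC markers, led by *Pecam1*, summed to between 6884 and 8361 CPM in *ControlΔEC* and between 6752 and 7830 CPM in *Wt1KOΔEC*, so EC markers were high in every library. Of the 12, *Emcn* alone had an unadjusted p under 0.05 (log2 difference 0.41), which is 8.33% of the list against 13.1% of all genes. *Kdr* and *Tek*, the receptors for VEGF and angiopoietin, followed at -0.29 and -0.21.

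The 15 mural cell markers summed to 585, 478 and 631 CPM in *ControlΔEC* and 405, 367 and 333 CPM in *Wt1KOΔEC*, with no overlap, as for *Pdgfrb*. The sums are carried by *Abcc9* and *Rgs5*, and members of the list differed in direction. Of the 14 tested, 5 were lower and none higher at an unadjusted p under 0.05, where 7.12% of all genes were lower, and the list median was -0.38 on the log2 scale. None was a DEG in edgeR's quasi-likelihood test, while DESeq2 called 4 as DEGs that fell, where it called 1.99% of all genes as lower. Fitted values were below 0 for 10 of the 14 and above 0 for 4, namely *Anpep* (1.19, without overlap), *Tagln* (0.92), *Cnn1* (0.88) and *Ndufa4l2* (0.29), and the smooth muscle actin gene *Acta2* was at -0.04. *Rgs5*, a regulator of G-protein signalling in pericytes, was at 165, 26.8 and 164 CPM in *ControlΔEC* and 25.4, 17.9 and 19.4 CPM in *Wt1KOΔEC*. The study instead counts *Rgs5*, as lower, and *Kcnj8*, as unchanged, among arterial markers. Which cells this RNA came from was not tested. The *ControlΔEC* library with the lowest *Pdgfrb*, replicate 2, was also the lowest of its group in *Rgs5*, *Cspg4* and *Vtn*, and in *Rgs5* it stood close to *Wt1KOΔEC*. *Abcc9* was instead highest of its group there, at 233, 289 and 267 CPM in *ControlΔEC*. The rest of the list was split. *Acta2*, *Cnn1*, *Higd1b* and *Ndufa4l2* were lowest of the group there too, whereas *Kcnj8*, *Notch3*, *Des*, *Anpep*, *Mylk* and *Tagln* were not. Within *Wt1KOΔEC*, *Pdgfrb* was lowest in replicate 1, where *Rgs5* and the mural sum were highest.

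*Cspg4*, the NG2 proteoglycan of pericytes, was at 13.8 ± 3.69 CPM (SD, n = 3) in *ControlΔEC* and 5.94 ± 0.882 CPM (n = 3) in *Wt1KOΔEC*. *Vtn*, the pericyte-rich matrix protein vitronectin, was at 2.73, 1.62 and 4.16 CPM in *ControlΔEC* and had no count in any *Wt1KOΔEC* library. *Abcc9*, a potassium channel subunit and the most abundant mural marker, differed by -0.42 on the log2 scale and overlapped. The part of mural cell RNA in the *Pdgfrb* values was not tested.

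The 12 fibroblast markers, which include collagen genes, summed to between 745 and 1105 CPM in *ControlΔEC* and between 1490 and 1689 CPM in *Wt1KOΔEC*, with no overlap, as for *Pdgfra*. Of the 12, 5 were higher and none lower at an unadjusted p under 0.05, where 5.96% of all genes were higher. DESeq2 called 5 as higher, where it called 3.64% of all genes in either direction, and the list median was 0.71 on the log2 scale. Collagen genes take much of the sum, and not all markers were higher, with *Dpt* at -1.60 without overlap, *Postn*, the second most abundant, at -0.16 and *Lum* at 0.04, the last 2 with overlap. *Col1a1*, a chain of type I collagen, rose from 114 ± 12.5 CPM (SD, n = 3) to 290 ± 40.0 CPM (n = 3) and was a DEG (log2 difference 1.34, adjusted p = 0.0441, edgeR's quasi-likelihood test), a call that 10 of 18 alternatives made. *Col3a1*, the most abundant of the list, was at 319 ± 65.1 and 624 ± 53.0 CPM (adjusted p = 0.110 in the same test). The study reports *Col1a1*, *Col3a1* and *Dcn*, all in this list, as venous markers that were overexpressed. It also places *Col1a1* in its fibroblast signature. Which cells carried this RNA was not tested.

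The epicardial list summed to between 48.4 and 55.7 CPM in *ControlΔEC* and between 76.1 and 101 CPM in *Wt1KOΔEC*, with *Clu* its most abundant gene. Its genes of smallest p were *Upk3b*, *Msln* and *Krt18*, with log2 differences of 2.15, 4.07 and 1.45, of which the first 2 had an unadjusted p under 0.05 in edgeR's quasi-likelihood test. DESeq2 called 2 genes of the list, where it called 3.64% of all genes in either direction. The endocardial list summed to between 389 and 482 CPM against 670 and 910 CPM, and *Plvap*, its most abundant gene, carries most of this difference. Of its 7 genes, 4 were higher and none lower at an unadjusted p under 0.05, where 5.96% of all genes were higher. DESeq2 called 3 as higher, where it called 3.64% of all genes in either direction. The fitted value of 1 of the 7 was below 0. In the endocardial list *Plvap*, a component of the diaphragms of fenestrae, rose from 68.1 ± 12.9 to 338 ± 20.5 CPM (SD, n = 3 each), a DEG at an adjusted p of 0.00319 in edgeR's quasi-likelihood test. In the epicardial list *Clu* overlapped between genotypes, and *Aldh1a2* (-0.05) and *Dmkn* (-0.34) were below 0 on the log2 scale, the direction of both turning in other fits, as did those of *Acta2*, *Postn* and *Lum*. The 2 of 11 epicardial genes that passed are 18.2% of the list, against 13.1% of all genes. In the study's reporter hearts, this driver and tamoxifen scheme left the epicardium and the endocardium of the ventricles without mGFP. It also describes counts of cardiomyocyte, epicardial and fibroblast genes in the sorted cells as relatively low. The part of epicardial, endocardial or fibroblast RNA in the values of *Pdgfra* and *Pdgfc* was not tested.

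The 10 macrophage markers summed to between 326 and 967 CPM in *ControlΔEC* and between 261 and 360 CPM in *Wt1KOΔEC*. Their most abundant gene, *Csf1r*, is the macrophage receptor most like the PDGF receptors and starts 11580 bp after the end of *Pdgfrb* on chromosome 18. It was at 153, 327 and 103 CPM in *ControlΔEC* and 72.5, 92.1 and 57.1 CPM in *Wt1KOΔEC*, with no overlap and a log2 difference of -1.40 (adjusted p = 0.217 in edgeR's quasi-likelihood test and 0.00472 in DESeq2). Unlike *Pdgfrb*, *Csf1r* was highest in *ControlΔEC* replicate 2. The macrophage genes *Adgre1* and *Ptprc* differed by -1.48 and -1.09 on the log2 scale, and DESeq2 called the first (adjusted p = 0.0113). Of the 10 macrophage markers 5 were lower and none higher at an unadjusted p under 0.05, where 7.12% of all genes were lower and 5.96% higher.

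Cardiomyocyte, platelet and erythroid lists overlapped between the genotypes in their summed levels, with *Actc1*, *Itga2b* and *Hba-a1* their most abundant genes. Log2 differences were 0.51, 0.70 and 0.21 for the cardiomyocyte genes *Actc1*, *Tnni3* and *Myh7*, and *Nkx2-5* had no count in *ControlΔEC*. They were -0.74 and 0.72 for the platelet genes *Pf4* and *Gp1ba*, and the direction of *Gp1ba* and *Myh7* turned in 1 alternative each. They were 2.57, -1.15 and -0.79 for the erythroid genes *Hbb-y*, *Alas2* and *Hbb-bt*. These 8 genes were named for their small p, so how many passed is counted over whole lists. At an unadjusted p under 0.05 in the main test, 0 of 9 cardiomyocyte genes and 1 of 8 platelet genes (12.5%) passed. Of 8 erythroid genes 3 passed (37.5%), 1 higher and 2 lower, against 13.1% of all genes. The main test called no DEG in these lists. DESeq2 called 3 genes, all erythroid, where it called 3.64% of all genes.

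**Figure D5:**
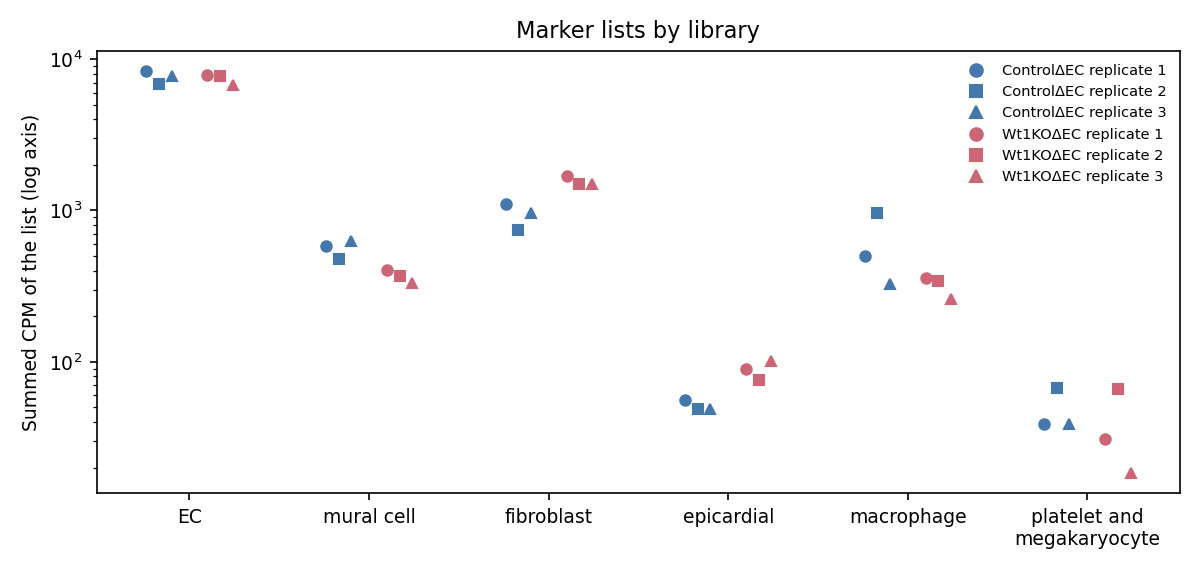
Summed level of the EC, mural cell, fibroblast, epicardial, macrophage and platelet marker lists in every library (TMM-normalized CPM, log axis) in ControlΔEC and Wt1KOΔEC. Mural cell sums are lower and fibroblast and epicardial sums higher in every Wt1KOΔEC library than in any ControlΔEC library, while EC, macrophage and platelet sums overlap.

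The genes around the receptors were read as 3 lists of 68 genes in all, of which 10 had an unadjusted p under 0.05 (14.7%, against 13.1% of all genes tested), 1 higher and 9 lower in *Wt1KOΔEC*. None was a DEG in edgeR's quasi-likelihood test, 3 were in DESeq2, which called 3.64% of all genes, and the median of the 68 was -0.10 on the log2 scale. In either direction the share that passed was near that of all genes, whereas by direction 1.47% of the 68 were higher and 13.2% lower, against 5.96% and 7.12% of all genes.

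Among 17 genes of ligand processing and retention, 1 was higher and 1 lower at that threshold (11.8%, against 13.1% of all genes), with *Sparc*, a matrix protein that binds PDGF-B, the most abundant. *Hspg2*, the heparan sulfate proteoglycan perlecan of the basement membrane, was at 1537, 987 and 904 CPM in *ControlΔEC* and 737, 796 and 551 CPM in *Wt1KOΔEC* (log2 difference -0.72, adjusted p = 0.257, edgeR's quasi-likelihood test). *Plaur*, the urokinase receptor, was at 113, 77.3 and 88.3 CPM against 147, 130 and 154 CPM (log2 difference 0.63, adjusted p = 0.2199 in the same test). *Lrp1*, an endocytic co-receptor of PDGFRβ, was at 19.1 ± 5.36 and 10.9 ± 5.63 CPM (SD, n = 3 each) and overlapped. Neither *Hspg2* nor *Plaur* overlapped between genotypes, and DESeq2 called both, at adjusted p of 0.0318 and 0.0338.

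Among 34 receptor adaptors and effectors, 4 were lower and none higher at that threshold (11.8%, where 7.12% of all genes were lower and 5.96% higher). *Crk*, an SH2 and SH3 adaptor, was at 344, 270 and 160 CPM in *ControlΔEC* and 113, 132 and 152 CPM in *Wt1KOΔEC* (log2 difference -0.96, adjusted p = 0.216 in edgeR's quasi-likelihood test and 0.00979 in DESeq2). *Sos1*, a Ras exchange factor, differed by -0.72 on the log2 scale and overlapped. *Plcg1*, phospholipase Cγ1, was the most abundant of the list and differed by -0.49, also with overlap.

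Among 17 genes that attenuate the receptors, 4 were lower and none higher at that threshold (23.5%, where 7.12% of all genes were lower and 5.96% higher). *Rasa1*, a Ras GTPase activator that docks on PDGFRβ, was at 51.5, 33.9 and 52.4 CPM in *ControlΔEC* and 33.2, 23.9 and 25.2 CPM in *Wt1KOΔEC*, without overlap (log2 difference -0.74, adjusted p = 0.258, edgeR's quasi-likelihood test). *Spred1*, an inhibitor of Ras signalling, differed by -0.92 without overlap, and *Cblb*, a ubiquitin ligase, by -0.88 with overlap. The MAPK phosphatase gene *Dusp6* was the most abundant of this list, at 321 CPM in *ControlΔEC* and 380 CPM in *Wt1KOΔEC* as group means.

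The nearest relatives of the family were read alongside. Of 5 related cystine-knot ligands none had an unadjusted p under 0.05 in edgeR's quasi-likelihood test. *Vegfb*, *Vegfa* and *Pgf*, ligands of the VEGF receptors, differed by 1.23, -0.80 and -0.28 on the log2 scale and overlapped, and *Pgf* turned to 0.32 without *ControlΔEC* replicate 1. Of the related receptors and their ligands, *Csf1r* and *Kit* were lower at that threshold (40% of those tested, where 7.12% of all genes were lower). *Kit*, the stem cell factor receptor, was at 341, 311 and 426 CPM in *ControlΔEC* and 215, 290 and 252 CPM in *Wt1KOΔEC*, without overlap (log2 difference -0.51, adjusted p = 0.285, edgeR's quasi-likelihood test), and its ligand gene *Kitl* overlapped (-0.51).

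Of 19 other endothelial signals to mural cells, 1 was higher and 4 lower at an unadjusted p under 0.05 (26.3%, against 13.1% of all genes), with a median of 0.10 on the log2 scale and *Eng*, a TGFβ co-receptor, the most abundant. *Apln*, a peptide of sprouting ECs, was at 140 ± 27.9 and 70.2 ± 11.8 CPM (SD, n = 3 each), a log2 difference of -0.9997 (adjusted p = 0.114, edgeR's quasi-likelihood test), and DESeq2 called it. *S1pr1*, a sphingosine 1-phosphate receptor, differed by 0.51 and *Cxcl12*, a chemokine, by -0.57.

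*Pdgfb* is itself enriched in tip cells, the leading cells of a sprout, and 14 other tip cell genes were read for that reason. Of these, 5 were higher and 2 lower at an unadjusted p under 0.05 (50%, against 13.1% of all genes), none was a DEG in edgeR's quasi-likelihood test and 4 were in DESeq2 (3.64% of all genes), and the median was 0.04 on the log2 scale. *Igfbp3*, the most abundant of the list, was at 1276, 1273 and 723 CPM in *ControlΔEC* and 2263, 2207 and 2136 CPM in *Wt1KOΔEC* (log2 difference 1.01, adjusted p = 0.134, edgeR's quasi-likelihood test). *Kcne3*, a potassium channel subunit, differed by 1.03. The values of *Igfbp3* and *Kcne3* were higher in *Wt1KOΔEC* without overlap, that of *Apln* was lower without overlap, and *Pdgfb* overlapped.

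Genes whose log2 CPM followed a member most closely over the 6 libraries, among those at a mean of at least 10 CPM, are given as a description, since all points share libraries, depth and scaling. For *Pdgfrb* these were *Ate1*, *Afdn* and *Adamts7* (Pearson's r of 0.992, 0.991 and 0.990), and for *Pdgfra* they were *Ppp2r5a*, *Gcc1* and *Srp72* (0.996, 0.992 and 0.991). For *Pdgfb* they were *Plxnd1*, *Foxm1* and *Itga5* (0.990, 0.983 and 0.976), of which *Plxnd1* encodes an endothelial semaphorin receptor. *Pdgfd* was followed by *Pik3r6*, *Traf7* and the Notch ligand gene *Jag2* (0.995, 0.993 and 0.988), *Pdgfc* by *Zfp36l1*, *Bex3* and *Cibar1* (0.997, 0.992 and 0.987), and *Pdgfa* by *Ablim3*, *Ankrd13c* and *Adgrl2* (0.984, 0.984 and 0.980).

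Promoter sequence was read because WT1 is a DNA-binding factor and is known as background to repress the *PDGFA* promoter in reporter assays. RefSeq windows from 250 bases before to 50 after a start site (build GRCm38.p6) matched 4 of the 6 members, with 2 windows for *Pdgfa* and 1 each for *Pdgfc*, *Pdgfd* and *Pdgfra*, and windows of *Pdgfb* and *Pdgfrb* were not used here. The WT1 and EGR type motifs GCGTGGGNG and GCGGGGGCG and a longer WT1 motif, each searched on both strands, had no match in these 5 windows. Of 32851 windows in all, 1.90%, 2.91% and 0.0548% hold them. Matches do not tell whether a factor binds, and the lack of a match says only that these letters are not in these windows.

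The SP1 type motif GGGCGG, which 35.7% of all windows hold, was found in the *Pdgfa* windows, and TATAAA, held by 13.6% and chosen after the sequences had been seen, in the *Pdgfd* window. Relative to the start site of their window, the *Pdgfa* matches begin at -60, -93 and -86 bases and the *Pdgfd* match at -160 bases. The matched stretches are shown because they are the motif matches found in the promoter windows of these members, with the motif or its reverse complement in capitals and the strand of the gene read 5′ to 3′. The *Pdgfa* stretches lie on the minus strand at chr5:138994322-138994351, chr5:138995018-138995047 and chr5:138995011-138995040, of which the last 2 overlap, and the *Pdgfd* stretch on the plus strand at chr9:6168316-6168345 (all GRCm38.p6).
Pdgfa, first window: gaggggactaGGGCGGgcagtaagcaggta
Pdgfa, second window: agcccagcccCCGCCCtccgccccttccgt
Pdgfa, second window: cccccgccctCCGCCCcttccgtccccacc
Pdgfd: ggccagtttcTATAAAaccctgggagacgg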

How the data were processed

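ECs sorted by mGFP from E15.5 hearts gave 3 *ControlΔEC* and 3 *Wt1KOΔEC* SMART-seq2 libraries, grouped by their labels. The authors aligned reads with STAR 2.7.8a and estimated counts per gene with RSEM 1.3.0, and the deposited values are these expected counts, given as whole numbers without normalization. The study's methods name GRCm39 with GENCODE vM27, whereas the submitters' processing notes list GRCm38. Which of the builds lies behind the counts was not settled here, and genes were matched by identifier.

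All 6 libraries entered the fit, with a minimum of 10 counts in 2 or more of them per gene, run in R 4.3.3 with edgeR 4.0.16 (TMM, quasi-likelihood test, Benjamini-Hochberg over 16296 genes). The study's methods name DESeq2, an alternative here (1.42.0), as were limma-voom (limma 3.58.1), other normalizations and filters, the replicate number as a block and each library left out. A length and GC offset (splines with 5 degrees of freedom), DESeq2 on all genes and the TATAAA motif were chosen only after seeing the data. Permutation tests used SciPy 1.17.1. The steps were tested on simulated data.

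Positions and exonic lengths come from GENCODE vM39 on GRCm39, promoter windows from RefSeq on GRCm38.p6. Named genes are the members, *Wt1*, DEGs or otherwise the 3 genes of smallest p in each list, the most abundant gene of each marker list, and the 3 genes most correlated with each member, and some that this rule names are not reported here. *Sparc*, *Dusp6*, *Eng*, *Plcg1*, *Nkx2-5*, *Rn18s*, *Anpep*, *Tagln*, *Cnn1*, *Ndufa4l2*, *Acta2*, *Dpt*, *Postn*, *Lum*, *Aldh1a2*, *Dmkn*, *6330403L08Rik* and the other models that overlap members and *Pdgfrl* were named with their values already known. So were *Kcnj8*, *Notch3*, *Des*, *Mylk*, *Higd1b* and *Dcn*. The members and lists were chosen with earlier results of these data known. Samples of the same genotype differed by more than sampling noise, so none was merged.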

Additional observations from a re-analysis of the deposited data

How the results depend on the processing

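The direction of all 6 members was the same in every alternative that gave a value. *Pdgfrb* passed the threshold in DESeq2 (-1.25 on the log2 scale, adjusted p = 0.00838), in DESeq2 on all genes (-1.25, 0.00822) and in edgeR without the filter (-1.25, 0.0108), and *Pdgfd* in DESeq2 on all genes (-0.83, 0.0310). Leaving out each library in turn gave log2 differences of -0.72 to -0.24 for *Pdgfa*, -0.48 to -0.15 for *Pdgfb*, 3.30 to 7.75 for *Pdgfc* (the highest without *ControlΔEC* replicate 3, when all its control counts are 0), -0.98 to -0.67 for *Pdgfd*, 0.66 to 1.03 for *Pdgfra* and -1.51 to -1.003 for *Pdgfrb*. The DEG count of 12 was 593 in DESeq2, 759 in DESeq2 on all genes, 296 without the filter, 113 with at least 10 counts in every library (where *Pdgfc* was not tested), 6 with the length and GC offset, 5 with the replicate block, 1652 with an unadjusted p, and between 2 and 37 with a library left out (4, 26 and 37 without *ControlΔEC* replicates 1, 2 and 3, and 3, 3 and 2 without *Wt1KOΔEC* replicates 1, 2 and 3). Same-numbered samples had correlated deviations of 0.0671, 0.213 and 0.0989 over 8470 genes, and each correlated best with its own number. The study's cross can give both genotypes in a shared litter. Whether same-numbered samples were littermates is not stated by the labels, and the main fit did not pair them. With the replicate block the members' log2 differences were -0.39, -0.33, 5.29, -0.81, 0.87 and -1.27 in the order above, and none passed. Without *Rn18s* and the mitochondrial genes they were -0.45, -0.32, 3.89, -0.83, 0.89 and -1.24, with none passing and a DEG count of 12. Scaling by library size only moved the median of all genes to -0.18 and the pathway genes with an unadjusted p under 0.05 from 10 to 16 (6 to 13 with a library left out, the lowest without *Wt1KOΔEC* replicate 1). Mural genes passing went from 5 to 3 with at least 10 counts in every library. The log2 ratio of *Pdgfa* to *Pdgfb* turned to 0.26 without *ControlΔEC* replicate 3, 0.05 without *Wt1KOΔEC* replicate 1 and 0.08 without replicate 2, and was between -0.35 and 0.26 over all libraries left out. With the longest transcript, levels in CPM per kb were, in *ControlΔEC* and *Wt1KOΔEC*, 1.56 and 1.14 for *Pdgfa*, 18.7 and 15.0 for *Pdgfb* and 6.14 and 3.47 for *Pdgfd*, 1.52 and 2.81 for *Pdgfra*, 9.34 in *ControlΔEC* for *Pdgfrb* and 0.192 in *Wt1KOΔEC* for *Pdgfc*. Except where the construction of the alternative shows it (fewer or more genes tested, no adjustment, another length), the cause was not tested. Of 55 genes named with a log2 difference besides the members, 47 kept their direction in every alternative that gave a value, the exceptions being *Acta2* (-0.23 to 0.14), *Postn* (-0.40 to 0.17), *Lum* (-0.17 to 0.22), *Aldh1a2* (-0.50 to 0.80), *Dmkn* (-0.67 to 0.52), *Pgf* (0.32 without *ControlΔEC* replicate 1), *Myh7* (-0.07 without *Wt1KOΔEC* replicate 3) and *Gp1ba* (-0.73 without *Wt1KOΔEC* replicate 2). The *Wt1* and *Plvap* calls held in 18 of 18 alternatives, and the *Col1a1* call was lost in 8, 5 of which left out a library (all but *ControlΔEC* replicate 2). Depth limits *Pdgfc* most, with 4 counts in all *ControlΔEC* libraries.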

Other observations

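*Pdgfrl*, a gene named for its likeness to the PDGF receptors that lacks a kinase domain, was picked with its values already known. It was at 0.916, 1.34 and 1.07 CPM in *ControlΔEC* and at 11.9, 6.65 and 1.78 CPM in *Wt1KOΔEC*. Every *Wt1KOΔEC* library was above every *ControlΔEC* library, and within *Wt1KOΔEC* the levels spread widely. The log2 difference was 2.61 (SE 0.74, adjusted p = 0.2199, edgeR's quasi-likelihood test), and DESeq2 called it a DEG (adjusted p = 0.0208).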
